A study of Mus musculus with 2 samples.

Results

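Interferon-responding oligodendrocytes were found in the optic nerve of *Nf1*-OPG mice as cells that held transcripts of mature oligodendrocytes together with transcripts of 3 interferon-induced GTPase genes. Cells with 500 to 5000 detected genes, 500 to 20000 unique molecular identifiers (UMIs, each standing for 1 captured transcript) and at most 5% mitochondrial UMIs were kept. A kept cell counted as an oligodendrocyte when *Mag*, *Mog*, *Ermn* and *Aspa* together had at least 4 UMIs and the leukocyte gene *Ptprc* had none. It counted as a member when *Iigp1*, *Igtp* and *Tgtp2* together, called the interferon sum here, had at least 3 UMIs. Of 25652 kept cells, 8440 were oligodendrocytes, and 1380 of these were members. The other 7060 oligodendrocytes, with an interferon sum of 0 to 2, served as the comparison.

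The cells came from 2 single-cell libraries of 5′ gene expression, C-ON (titled a control) and FMC_new (titled FMC new), both of optic nerves with the genotype label NF1-OPG. Each was made from a pool of nerves of 10 mice aged 12 weeks. In this model 1 *Nf1* allele is mutant in the whole animal, and Cre under the GFAP promoter removes the floxed allele in glia and their precursors, from which optic gliomas arise. All cells of both libraries therefore came from glioma-bearing animals, neither the labels nor the study's methods say how FMC_new differed from C-ON, and no library without the *Nf1* alleles was compared. The members were chosen by the measured UMIs of *Mag*, *Mog*, *Ermn*, *Aspa*, *Ptprc*, *Iigp1*, *Igtp* and *Tgtp2*. Since each library is 1 pooled sample and the same cells chose the members, every value below is a description without a test, and each library is given on its own.

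Oligodendrocytes wrap axons of the central nervous system in myelin. Interferons are secreted proteins that bind receptors on the cell surface. Type II interferon (interferon gamma, encoded by *Ifng* and made mainly by T and NK cells) and type I interferons (encoded by *Ifnb1* and the *Ifna* genes) act through separate receptors and largely shared signalling proteins. Their target genes include immunity-related GTPases (IRGs) and guanylate-binding proteins (GBPs), which attack the vacuoles of intracellular pathogens, antiviral proteins, and the MHC class I pathway, which shows peptides from inside the cell to CD8+ T cells.

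In C-ON, 607 of 5848 oligodendrocytes were members (10.4%, exact 95% binomial interval 9.61% to 11.2%). In FMC_new, 773 of 2592 were members (29.8%, interval 28.1% to 31.6%). With the libraries as 2 samples of 1 group, the share was 20.1% ± 13.7 (SD, n = 2). The intervals cover counting error only, and the libraries differed by more than that error. After each cell was thinned to 2000 UMIs, 7.88% (interval 7.19% to 8.61%) of 5663 oligodendrocytes in C-ON and 18.5% (interval 16.9% to 20.1%) of 2352 in FMC_new were members, so the order of the libraries was the same at equal depth. In that thinning 11 members and 281 other oligodendrocytes of C-ON, and 39 members and 254 others of FMC_new, were too shallow and were left out. The rule was applied anew to the thinned counts, so cells that lost their *Ptprc* UMIs in thinning came in. Gated on full counts, 5556 oligodendrocytes of C-ON and 2299 of FMC_new were deep enough. Members were deeper than the other oligodendrocytes, with a median of 9330 against 7579 UMIs in C-ON and 8604 against 6422 in FMC_new. Their mitochondrial share was lower, with a median of 1.31% against 2.20% in C-ON and 1.48% against 1.76% in FMC_new.

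The interferon sum of members spanned a wide range without a second peak. Its median was 22 UMIs in C-ON (quartiles 10 and 43, highest 156) and 11 in FMC_new (quartiles 6 and 26, highest 139). In C-ON, 4877 oligodendrocytes had a sum of 0, 364 a sum of 1 to 2, 83 a sum of 3 to 5, 85 a sum of 6 to 10 and 439 a sum over 10. In FMC_new these were 1380, 439, 193, 183 and 397 cells. At the edge of the rule, 59 cells of C-ON had a sum of 2, with 860 UMIs of *B2m* per 1000000 UMIs of those cells (CPM), and 36 had a sum of 3, with 1875 CPM. In FMC_new, the 123 cells with a sum of 2 had 1852 CPM of *B2m* and the 85 with a sum of 3 had 1778 CPM. The rule therefore split a continuum in FMC_new, where cells just outside it held as much *B2m* as cells just inside. Among cells with an interferon sum of at least 3, few lay at the other edge. At an oligodendrocyte sum of 3 there were 3 such cells in C-ON and 18 in FMC_new, and at 4 there were 2 and 7.

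**Figure D1:**
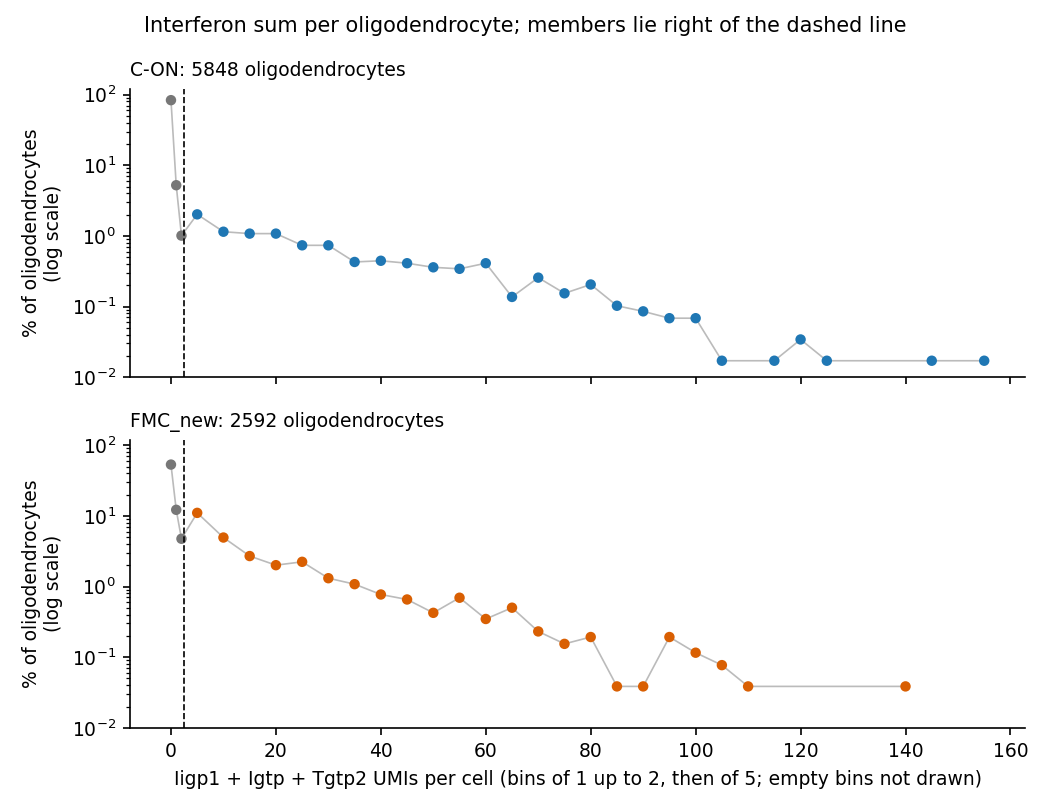
Share of oligodendrocytes (%, log scale) by the number of *Iigp1*, *Igtp* and *Tgtp2* UMIs in the cell, for C-ON above and FMC_new below. Grey points are the sums 0, 1 and 2, and coloured points are members in bins of 5. The shares fall away, with small rises between some bins and no separate peak up to the highest sums of 156 and 139.

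The label was checked against genes outside the rule. On the oligodendrocyte side, *Mbp*, myelin basic protein, had 6780 CPM in members against 7938 CPM in the other oligodendrocytes of C-ON, and 7190 against 8054 CPM in FMC_new. Members thus held this myelin transcript at a slightly lower level than the other oligodendrocytes. On the interferon side, a score was made of 98 interferon-induced genes without the 3 genes of the rule and without *Tgtp1*, as UMIs per 10000 UMIs of the cell. Its median was 287 in members of C-ON against 9.96 in oligodendrocytes with a sum of 0, and 191 against 26.9 in FMC_new. In C-ON 93.4% of the members lay above the value that 99% of the sum-0 cells stayed under, and in FMC_new 45.0% did. The groups overlapped little in C-ON and more in FMC_new, where sum-0 cells reached a score of 204 at that mark against 95.5 in C-ON. Most cells were still apart in FMC_new, where the 5th percentile of members was 71.8 and the upper quartile of sum-0 cells was 66.0. Cells with a sum of 1 to 2 lay between, with a median score of 16.8 in C-ON and 91.7 in FMC_new.

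The promoters of the genes that define and accompany the members are shown because they carry, or lack, the letters that interferon-activated factors are known to bind. RefSeq promoter windows of GRCm38.p6, 250 bases before to 50 bases after each gene's start, were searched on both strands for GAAA, any 2 bases and GAAA again, a core of the interferon-stimulated response element (TTTC, any 2 bases and TTTC on the other strand), and for TTCNNNGAA, a core of the gamma-activated site, which reads the same on both strands. Matches are in capitals. *Igtp* (chr11:58199306-58199605, plus strand), *Tgtp2* (chr11:49064163-49064462, minus strand) and *Irgm1* (chr11:48871371-48871670, minus strand) encode IRGs. *Gbp2* (chr3:142620413-142620712, plus strand) encodes a GBP, *B2m* (chr2:122147437-122147736, plus strand) the light chain of MHC class I, and *Klk8* (chr7:43797327-43797626, plus strand) a secreted serine protease.
*Igtp*: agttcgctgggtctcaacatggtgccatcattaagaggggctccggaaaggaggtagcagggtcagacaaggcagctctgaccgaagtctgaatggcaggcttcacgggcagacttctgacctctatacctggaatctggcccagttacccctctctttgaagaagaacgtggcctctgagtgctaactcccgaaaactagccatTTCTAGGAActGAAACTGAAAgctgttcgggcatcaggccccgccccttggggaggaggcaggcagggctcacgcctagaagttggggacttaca
*Tgtp2*: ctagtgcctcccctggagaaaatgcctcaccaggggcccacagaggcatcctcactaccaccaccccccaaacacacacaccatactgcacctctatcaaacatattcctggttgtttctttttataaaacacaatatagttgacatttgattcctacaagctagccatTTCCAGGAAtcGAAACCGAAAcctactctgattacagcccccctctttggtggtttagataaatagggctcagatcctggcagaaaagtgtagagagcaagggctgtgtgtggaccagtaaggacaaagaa
*Irgm1*: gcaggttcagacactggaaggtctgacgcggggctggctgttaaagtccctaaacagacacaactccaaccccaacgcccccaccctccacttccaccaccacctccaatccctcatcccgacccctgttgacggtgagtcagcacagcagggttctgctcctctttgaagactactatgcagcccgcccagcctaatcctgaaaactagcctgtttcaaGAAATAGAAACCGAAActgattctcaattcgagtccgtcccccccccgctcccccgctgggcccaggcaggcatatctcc
*Gbp2*: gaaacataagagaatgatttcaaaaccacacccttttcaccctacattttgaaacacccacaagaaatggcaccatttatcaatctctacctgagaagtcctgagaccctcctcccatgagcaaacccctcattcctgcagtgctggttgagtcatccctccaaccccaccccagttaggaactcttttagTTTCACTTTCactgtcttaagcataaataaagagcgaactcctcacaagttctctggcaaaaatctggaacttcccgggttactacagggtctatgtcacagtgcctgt
*B2m*: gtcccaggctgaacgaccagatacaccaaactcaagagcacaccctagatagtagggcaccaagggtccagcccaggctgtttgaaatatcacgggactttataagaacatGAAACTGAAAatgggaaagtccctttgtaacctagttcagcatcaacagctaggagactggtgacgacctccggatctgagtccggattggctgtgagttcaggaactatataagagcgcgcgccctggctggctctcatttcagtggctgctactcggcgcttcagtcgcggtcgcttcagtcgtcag
*Klk8*: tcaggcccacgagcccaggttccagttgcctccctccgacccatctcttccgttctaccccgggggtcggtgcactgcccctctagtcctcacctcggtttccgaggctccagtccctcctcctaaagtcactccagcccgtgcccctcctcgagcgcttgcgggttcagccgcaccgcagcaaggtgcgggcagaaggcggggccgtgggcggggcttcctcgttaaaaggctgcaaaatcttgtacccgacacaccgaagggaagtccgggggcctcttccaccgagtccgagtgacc

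The windows of *Igtp* and *Tgtp2*, both genes of the rule, held the same pair of matches side by side. In *Igtp* the gamma-activated core began 45 bases before the start of the gene and the response element core 34 bases before. In *Tgtp2* they began 81 and 70 bases before the start. *Irgm1* held 2 response element cores that share bases with each other, and *Gbp2* and *B2m* held 1 each, 59 and 139 bases before the start. *Klk8* held neither, and neither did *Tap1*, *Cd274* or *Serpina3n*. Of all 27025 genes with a window, 3.99% held the response element core and 9.55% the gamma-activated core. Of the 251 genes described below as higher in members, 179 had a window, and 24.6% of these held the response element core and 16.8% the gamma-activated core. Of the 123 lower genes, 71 had a window, and 0 held the response element core and 3 the gamma-activated core. Of the GBP list 5 of 5 genes with a window held a response element core, of the IRG list 5 of 7, of the antiviral list 22 of 42, of the MHC class I list 4 of 12, of the myelin list 1 of 16 and of the cholesterol synthesis list 0 of 10. A match is a run of letters, not a site shown to be bound.

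Levels were compared as CPM of the summed UMIs of members over CPM of the other oligodendrocytes, within each library. With at least 5 UMIs expected in the members of each library, 12562 genes were compared, and the median log2 ratio over them was -0.02 in both libraries. A gene was called higher or lower when its ratio was at least 2 or at most 0.5 in both libraries. By this rule 251 genes were higher in members (2.0%) and 123 were lower (0.979%). In C-ON alone 762 genes (6.07%) were at least 2-fold higher, and in FMC_new 310 (2.47%), while 492 (3.92%) and 490 (3.9%) were at least 2-fold lower. A ratio above 1 in both libraries was found for 28.2% of the genes. Since the interferon sum chose the members, a high ratio of genes that go with it is part of the choice, and the counts below describe which genes those are. Chromosome 17, which holds the MHC region, had 31 higher genes of 632 compared (4.91%), and chromosome 6 had 30 of 628 (4.78%).

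The 3 genes of the rule had 1384, 922 and 820 CPM in members of C-ON for *Iigp1*, *Igtp* and *Tgtp2*, against 2.85, 3.88 and 3.33 CPM in the other oligodendrocytes. In FMC_new they had 927, 725 and 561 CPM against 10.7, 22.3 and 12.7 CPM. Of the 10 other IRG genes listed, 7 could be compared and 7 were higher, with a median log2 ratio of 7.52 in C-ON and 4.13 in FMC_new. *Irgm1*, a regulator of the other IRGs that sits on the cell's own membranes, had 831 against 7.21 CPM in C-ON and 607 against 45.0 CPM in FMC_new. Its ratio was 115 (interval 103 to 130) and 13.5 (interval 12.3 to 14.8). *Gm4951* had 572 against 1.45 CPM in C-ON and 296 against 5.78 CPM in FMC_new. *Tgtp1* and *Tgtp2* are near copies, 99.33% identical over their longest transcripts, so their reads can be shared between them. *Igtp* and *Irgm2* overlap on the same strand, as do *Gm12185* and *Tgtp1*, and *Olfr56* and *Ifi47*. The levels of these genes are therefore uncertain one by one. *Olfr56* also overlaps *Tgtp1* and *Tgtp2*, which lie on the other strand.

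Of 11 GBP genes listed, 10 were compared and 10 were higher, with a median log2 ratio of 6.93 in C-ON and 4.16 in FMC_new. *Gbp2* had 524 CPM in members of C-ON against 1.59 CPM, and 151 against 5.21 CPM in FMC_new. *Gbp3* had 213 against 1.93 CPM in C-ON and 106 against 6.59 CPM in FMC_new, and *Gbp4* had 216 against 0.761 CPM and 73.9 against 2.36 CPM. All 3 genes were higher in members of C-ON than in those of FMC_new, and lower in the other oligodendrocytes of C-ON than in those of FMC_new. *Gbp4*, *Gbp8* and *Gbp9* overlap each other on 1 strand.

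The MHC class I pathway was higher as a whole in both libraries. All 16 genes listed were compared and 16 were higher, with a median log2 ratio of 4.79 in C-ON and 2.12 in FMC_new. *B2m* had 3039 CPM in members and 139 CPM in the other oligodendrocytes of C-ON, a ratio of 21.8 (interval 21.2 to 22.5), and 2823 against 785 CPM in FMC_new, a ratio of 3.60 (interval 3.51 to 3.69). *H2-K1* and *H2-D1* encode the classical heavy chains. *H2-K1* had 2326 against 76.9 CPM in C-ON and 1872 against 502 CPM in FMC_new. *H2-D1* had 5195 against 211 CPM and 4165 against 1183 CPM. *H2-T23*, a non-classical heavy chain seen by NK cell receptors, had 1808 against 20.6 CPM and 1011 against 97.0 CPM. *Tap1* and *Tap2* form the pump that carries peptides into the endoplasmic reticulum. *Tap1* had 303 against 2.05 CPM in C-ON and 186 against 17.7 CPM in FMC_new, and *Tap2* 250 against 4.28 CPM and 181 against 22.5 CPM. The ratios of FMC_new were smaller mainly on the side of the comparison, since the other oligodendrocytes of FMC_new held 785 CPM of *B2m* and those of C-ON 139 CPM, while members held 2823 and 3039 CPM.

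The immunoproteasome, the form of the proteasome that cuts peptides for MHC class I, followed the same pattern. All 5 genes were higher, with a median log2 ratio of 4.51 in C-ON and 2.41 in FMC_new. *Psmb8*, which replaces a catalytic subunit, had 930 against 11.3 CPM in C-ON and 577 against 72.4 CPM in FMC_new. *Psmb9* had 368 against 5.18 CPM and 265 against 38.6 CPM, and *Psmb10* had 311 against 13.7 CPM and 178 against 33.5 CPM. *Psmb9* and *Tap1* lie head to head, and their promoter windows share 275 bases. Of 14 constitutive proteasome genes, 0 were called higher, and the median log2 ratio was 0.31 in C-ON and 0.13 in FMC_new. *Psmb1* had 286 against 255 CPM and 284 against 266 CPM.

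**Figure D2:**
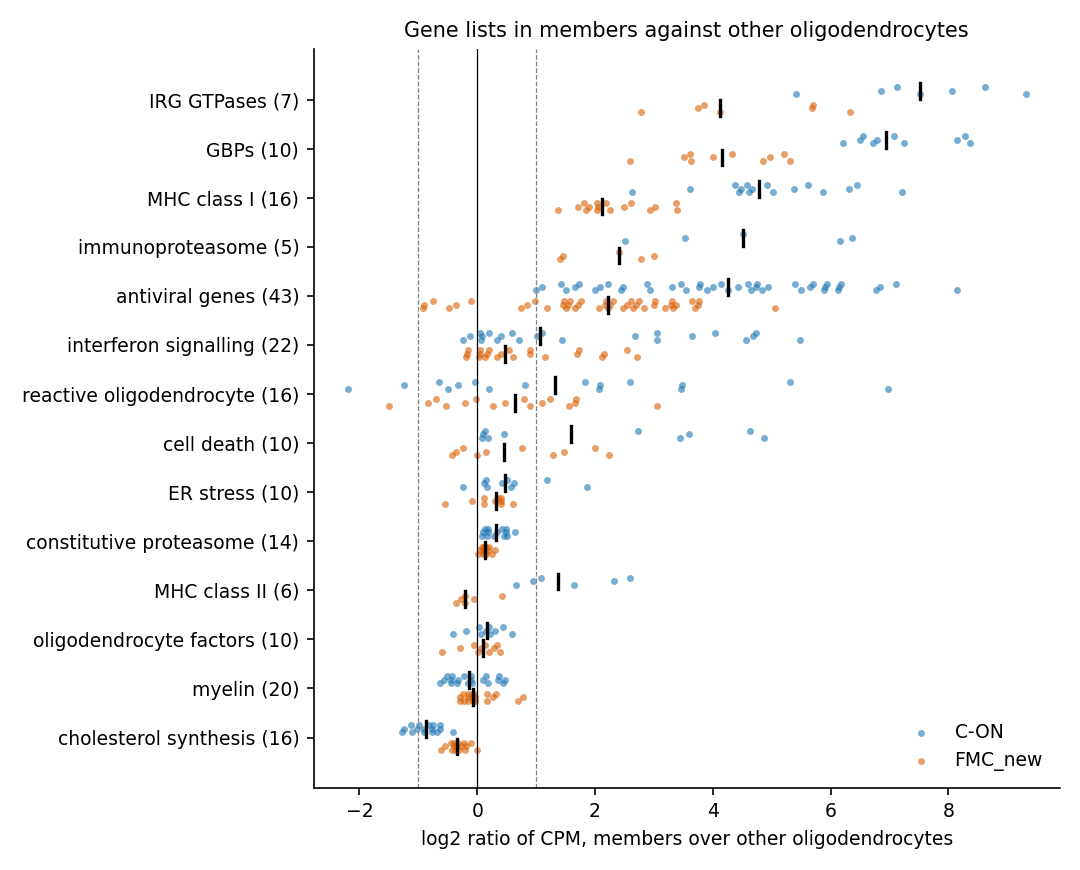
Log2 ratio of CPM, members over other oligodendrocytes, for each compared gene of 14 lists, with C-ON in blue, FMC_new in orange and the median as a black bar. Dashed lines are 2-fold, and the number of genes compared is in brackets. The IRG, GBP, MHC class I and immunoproteasome genes lie right of the upper dashed line in both libraries, and the cholesterol synthesis genes lie left of 0.

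MHC class II presents peptides to CD4+ T cells and is used mainly by professional antigen-presenting cells. Its genes were higher in members of C-ON, at a lower median than MHC class I, but mostly not in FMC_new. Of 7 genes listed 6 were compared and 0 were called, with a median log2 ratio of 1.37 in C-ON and -0.20 in FMC_new. All 6 had a ratio above 1 in C-ON, and 1 did in FMC_new. In members, *H2-DMb1* had 13.1 against 2.16 CPM in C-ON and 11.3 against 11.7 CPM in FMC_new. *H2-DMa* had 35.8 against 7.18 CPM and 24.3 against 18.2 CPM. *Cd74*, the invariant chain, had 223 CPM in members and 141 CPM in the other oligodendrocytes of C-ON, and 530 against 641 CPM in FMC_new. *H2-Aa* had 79.2 against 37.2 CPM and 155 against 198 CPM. For 5 of the 6 compared genes the direction differed between the libraries. Thinning or averaging over cells also turned the sign of the list's mean over both libraries. *Cd74* was highest in cells with a low interferon sum. In C-ON it had 112, 528, 622, 146 and 185 CPM at sums of 0, 1 to 2, 3 to 5, 6 to 10 and over 10. *C1qa*, a microglial gene, had 14.1, 45.8, 149, 21.3 and 5.88 CPM in the same cells. In FMC_new *Cd74* had 542, 967, 1059, 352 and 389 CPM, and *C1qa* had 90.5, 183, 166, 76.5 and 110 CPM. Against sum-0 cells, the cells with a sum over 10 had more *Cd74* and less *C1qa* in C-ON, and less *Cd74* and more *C1qa* in FMC_new. Without cells that held any of 10 microglial or T cell transcripts, the median log2 ratio of the class II genes was 1.16 as the mean of both libraries. It was 0.58 with those cells. The part of microglial transcripts in the class II level was not tested beyond these values.

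Of 54 antiviral genes listed, 43 were compared and 34 were higher, with a median log2 ratio of 4.26 in C-ON and 2.22 in FMC_new. *Isg15*, a ubiquitin-like modifier, had 336 against 3.07 CPM in C-ON and 123 against 13.6 CPM in FMC_new. *Zbp1*, a sensor of Z-form nucleic acids, had 402 against 2.93 CPM and 162 against 12.4 CPM. *Bst2*, which tethers budding virions, had 356 against 16.5 CPM and 212 against 44.5 CPM. *Ifi47*, an IRG-related GTPase on chromosome 11, had 614 against 2.16 CPM and 294 against 8.87 CPM. The lowest of the list included *Sp100*, a nuclear body protein, with 3.79 against 1.90 CPM in C-ON and 5.13 against 8.62 CPM in FMC_new. *Mx1* and *Mx2* were not analysed here.

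Of 22 genes of interferon signalling, 22 were compared and 7 were higher, among them *Stat2*, *Irf1* and *Usp18*. The median log2 ratio of the list was 1.06 in C-ON and 0.47 in FMC_new. *Irf1*, a transcription factor, had 146 against 3.28 CPM and 144 against 33.1 CPM. *Usp18*, which dampens type I receptor signalling, had 196 against 7.35 CPM and 97.2 against 16.6 CPM. Of the receptor genes, 0 were called in both libraries. *Ifngr1* had 20.8 against 16.5 CPM in C-ON and 29.8 against 28.9 CPM in FMC_new. *Ifngr2* had 8.95 against 5.45 CPM and 11.0 against 9.60 CPM. *Ifnar1* had 18.4 against 21.7 CPM and 26.1 against 25.7 CPM, and *Ifnar2* had 110 against 54.1 CPM and 95.3 against 65.8 CPM, ratios of 2.02 and 1.45.

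*Cd274* encodes PD-L1, the ligand of the T cell checkpoint receptor PD-1. It had 182 CPM in members and 1.55 CPM in the other oligodendrocytes of C-ON, a ratio of 117 (interval 91.4 to 153), and 114 against 7.16 CPM in FMC_new, a ratio of 15.9 (interval 12.8 to 20.1). It was the 1 gene called higher of 7 compared in a list of 15 chemokine, cytokine and checkpoint genes. *Cxcl9* was called lower at low levels, with 1.03 against 2.95 CPM and 2.64 against 5.53 CPM, and it was not lower once cells that passed another cell type's gate or held microglial or T cell transcripts were left out. *Cxcl10* had 5.33 against 0.856 CPM in C-ON and 1.17 against 2.28 CPM in FMC_new. *Il18* had 86.6 against 118 CPM and 95.8 against 101 CPM, while its secreted antagonist *Il18bp* had 92.6 against 1.02 CPM and 38.7 against 2.52 CPM.

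Of 16 genes of cell death pathways 10 were compared, and 4 were higher. Among them, *Tnfrsf1a*, the receptor of TNF, had 32.0 against 1.09 CPM in C-ON and 27.6 against 9.92 CPM in FMC_new. *Casp1*, the inflammasome protease, had 25.5 against 1.02 CPM and 8.51 against 3.50 CPM. *Mlkl*, the effector of necroptosis, had 15.3 against 1.40 CPM and 7.48 against 1.87 CPM. *Casp8* had 1.55 against 1.45 CPM and 2.35 against 3.01 CPM. Of 12 genes of endoplasmic reticulum stress 10 were compared and 0 were called, with *Hspa5* at 285 against 262 CPM and 465 against 350 CPM. *Ddit3* had 82.4 against 36.1 CPM in C-ON and 65.6 against 43.0 CPM in FMC_new.

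Genes known from reactive oligodendrocytes of injured or inflamed white matter were high in members beside the interferon genes. Of 18 genes listed 16 were compared, 5 were higher and 1 was lower. *Serpina3n*, a secreted inhibitor of serine proteases, had 1733 CPM in members and 157 CPM in the other oligodendrocytes of C-ON, and 1597 against 505 CPM in FMC_new. *C4b*, complement component 4, had 1160 against 104 CPM and 1209 against 411 CPM. *Klk8* had 789 against 6.28 CPM in C-ON, a ratio of 126 (interval 111 to 143), and 193 against 23.3 CPM in FMC_new, a ratio of 8.28 (interval 7.28 to 9.45). *Klk6*, a related protease that mature oligodendrocytes also make at rest, had 6233 against 1477 CPM and 5585 against 2359 CPM. *Fxyd7*, a regulator of the sodium pump, had 22.5 against 0.571 CPM and 45.3 against 14.2 CPM. *Nkx2-9*, a homeobox gene, was lower, with 6.71 against 30.8 CPM and 6.60 against 18.5 CPM. *Serpina3n* and *C4b* were at like levels in members of both libraries, while *Klk8* was higher in those of C-ON.

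The reactive genes were not limited to members, so both features were crossed. A cell counted as reactive with at least 3 UMIs of *Serpina3n* and *C4b* in sum. This held for 578 of 607 members of C-ON (95.2%) and 705 of 773 of FMC_new (91.2%), and for 20.7% and 36.8% of the oligodendrocytes with an interferon sum of 0. The reactive sum-0 cells, 1010 in C-ON and 508 in FMC_new, were as deep as the reactive members, with a median of 10178 against 9448 UMIs and 8700 against 8802 UMIs. They held 162 CPM of *B2m* in C-ON against 3106 CPM in reactive members, and 773 against 2877 CPM in FMC_new. They held 7.95 CPM of *Klk8* against 811 CPM in C-ON, and 34.1 against 203 CPM in FMC_new. *Klk6* was less far apart, with 1973 against 6375 CPM and 3301 against 5840 CPM. Cells with *Serpina3n* and *C4b* but without the interferon genes were thus common, and *Klk8* was lower in them than in reactive members. They also held less of both genes that chose them, so the classes were not equally reactive. *Serpina3n* had 368 against 1781 CPM in C-ON and 839 against 1682 CPM in FMC_new, and *C4b* 293 against 1191 CPM and 660 against 1270 CPM. The members that were not reactive were few and shallow, 29 in C-ON and 68 in FMC_new with medians of 4692 and 3637 UMIs, and held 779 and 1865 CPM of *B2m*. Their *Klk8* was 42.3 CPM in C-ON and 13.8 CPM in FMC_new. The latter rested on 5 UMIs (interval 4.49 to 32.3). That interval overlapped the one of the reactive sum-0 cells of FMC_new, at 34.1 CPM (28.95 to 40.0).

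**Figure D3:**
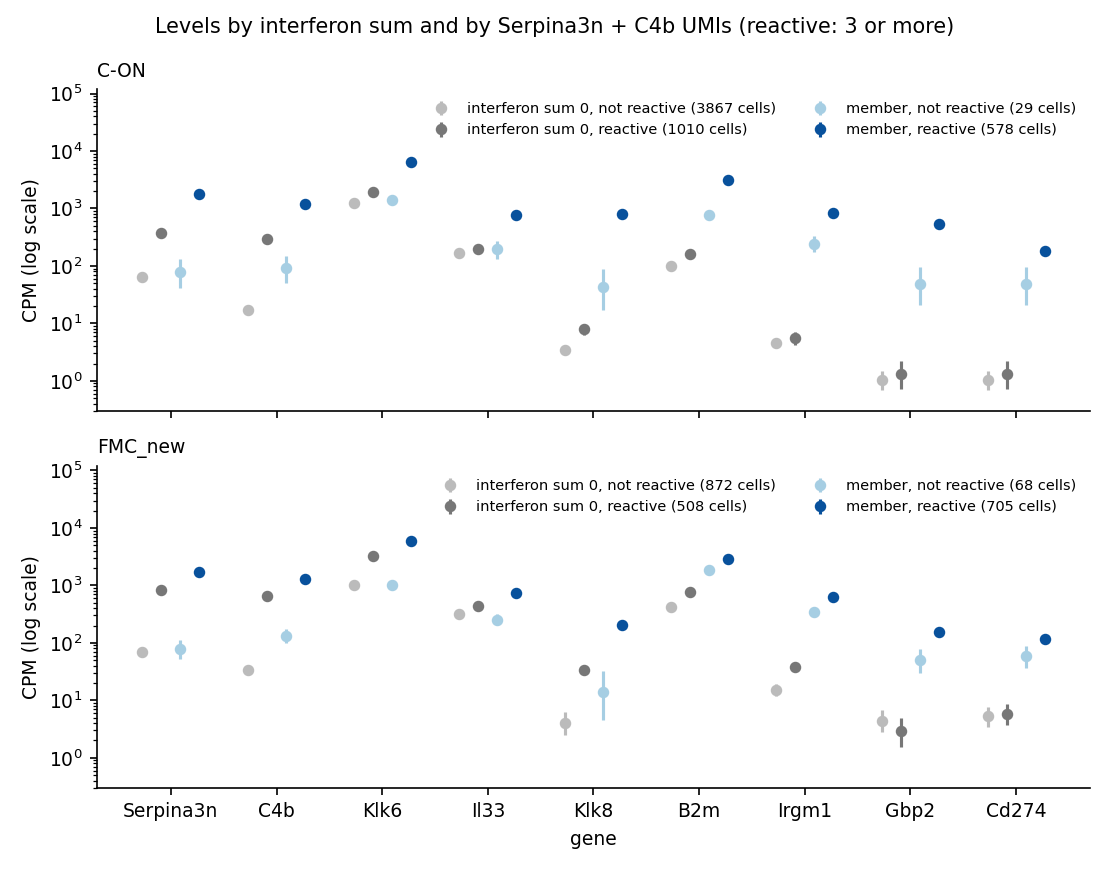
CPM (log scale) of 9 genes in oligodendrocytes split by interferon sum and by *Serpina3n* and *C4b* UMIs, for C-ON above and FMC_new below. Points are summed UMIs over the cells of each class with exact 95% Poisson intervals, and *Serpina3n* and *C4b* chose the reactive classes. The gap between sum-0 and member cells is wide for *Irgm1*, *Gbp2* and *Cd274* and narrower for *Klk6* and *Il33*. It is wide for *Klk8* except in the cells of FMC_new that were not reactive. There the intervals overlap, with 4.05 CPM (2.47 to 6.25) in sum-0 cells and 13.8 CPM (4.49 to 32.3) in members.

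Myelin and oligodendrocyte identity genes were close to those of the other oligodendrocytes. Of 20 myelin genes 20 were compared and 0 were called, with a median log2 ratio of -0.13 in C-ON and -0.07 in FMC_new. The direction was below 1 in both libraries for 12 of them and above 1 for 5. *Trf*, the iron carrier transferrin, had 13554 against 10017 CPM in C-ON and 18879 against 11700 CPM in FMC_new, and *Apod*, apolipoprotein D, 8391 against 6056 CPM and 10564 against 6174 CPM. *Cldn11*, the tight junction protein of myelin, had 5184 against 4008 CPM and 4335 against 3460 CPM. Of 10 oligodendrocyte transcription factors 0 were called. *Myrf*, which drives myelin genes, had 332 against 300 CPM and 346 against 315 CPM, and *Olig1* had 853 against 1141 CPM and 772 against 947 CPM. *Ptgds*, prostaglandin D synthase, which marks some mature oligodendrocytes, had 1577 against 2464 CPM and 1965 against 3491 CPM.

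The genes of cholesterol synthesis, on which myelin depends, were lower in members together, by less than 2-fold at the median in both libraries. All 16 listed were compared, 16 had a ratio below 1 in both libraries and 0 were called, while 33.7% of all genes compared were below 1 in both. The median log2 ratio was -0.86 in C-ON and -0.34 in FMC_new. *Hmgcs1*, an early enzyme of the pathway, had 408 against 972 CPM in C-ON, a ratio of 0.420 (interval 0.403 to 0.438), and 456 against 665 CPM in FMC_new, a ratio of 0.686 (interval 0.658 to 0.715). *Msmo1* had 194 against 416 CPM and 203 against 267 CPM.

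Of 15 immediate early genes, which respond to cell handling, 15 were compared and 0 were called. Of 11 genes of oligodendrocyte precursors and glioma cells 9 were compared, and *Gpr17*, a receptor of committed precursors, was the 1 called higher, with 3.27 against 1.07 CPM in C-ON and 20.8 against 9.03 CPM in FMC_new. Without cells that passed another cell type's gate its log2 ratio, as the mean of both libraries, was -0.42, so it was not higher there.

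The levels were followed along the interferon sum within the oligodendrocytes. *B2m* had 117, 440, 1965, 2374 and 3267 CPM in C-ON at sums of 0, 1 to 2, 3 to 5, 6 to 10 and over 10, and 590, 1422, 2029, 2357 and 3323 CPM in FMC_new. From a sum of 3 upward both libraries held nearly the same *B2m*. *Irgm1* had 234, 335 and 975 CPM in the 3 member classes of C-ON and 229, 336 and 865 CPM in FMC_new, again alike. *Gbp2* had 62.0, 138 and 636 CPM in C-ON and 15.1, 26.2 and 254 CPM in FMC_new. *Klk8* had 305, 515 and 888 CPM in C-ON and 90.8, 151 and 250 CPM in FMC_new. Both genes were lower in FMC_new in each member class. *Hmgcs1* was lower in the member classes than in sum-0 cells, which had 976 and 681 CPM, with 599, 546 and 365 CPM in C-ON and 479, 543 and 413 CPM in FMC_new. In C-ON, *C1qa* had 149, 21.3 and 5.88 CPM in the member classes, and in FMC_new it had 166, 76.5 and 110 CPM, so the drop with the sum in C-ON was not seen in the same form in FMC_new.

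**Figure D4:**
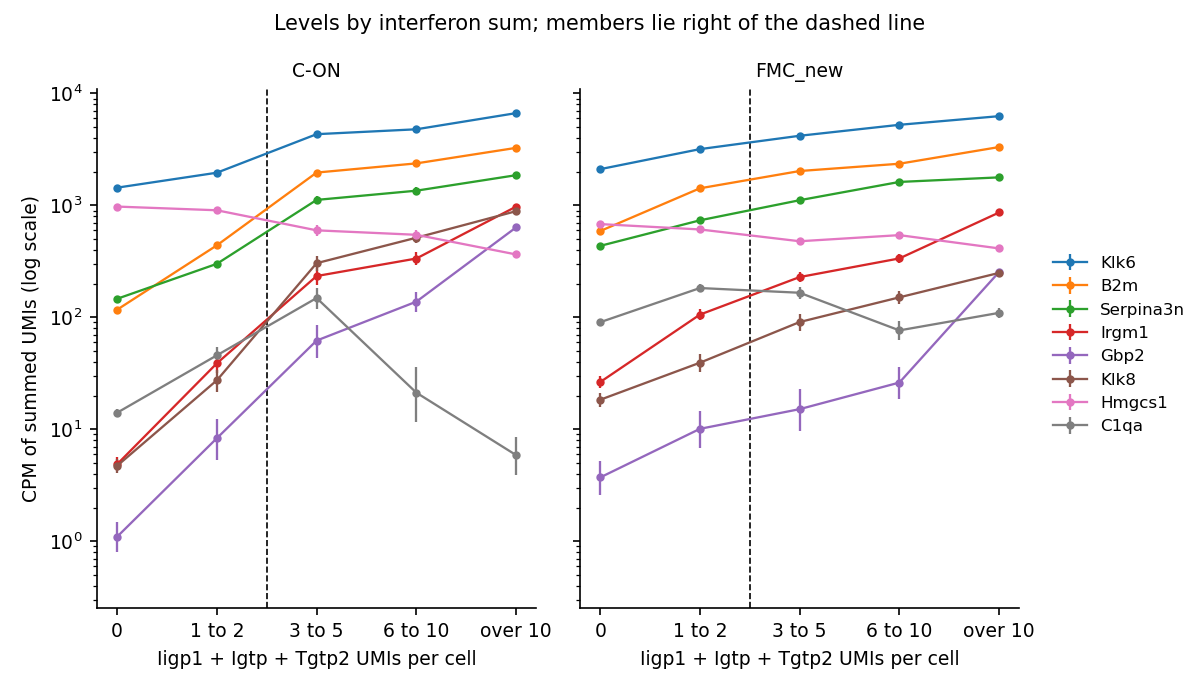
CPM of summed UMIs (log scale) of 8 genes in oligodendrocytes by interferon sum, for C-ON at left and FMC_new at right, with exact 95% Poisson intervals. Members lie right of the dashed line. *B2m*, *Irgm1*, *Gbp2* and *Klk8* are higher at each step in both libraries, and *C1qa* in C-ON drops from 149 to 5.88 CPM within the members, against 166 to 110 CPM in FMC_new.

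Outside the lists, 157 genes were higher in members. The 10 with the highest smaller ratio of both libraries were *Il18bp*, *Serping1*, *Tmem140*, *Batf2*, *Parp10*, *Olfr56*, *Tnfsf10*, *C1ra*, *Gm12185* and *4933412E12Rik*. *Serping1* and *C1ra* encode an inhibitor and a protease of the first complement component. *Serping1* had 174 against 1.71 CPM in C-ON and 76.6 against 5.12 CPM in FMC_new, and *C1ra* had 15.7 against 0.238 CPM and 8.21 against 1.06 CPM. *Tnfsf10* encodes TRAIL, a ligand that can trigger apoptosis, and had 37.0 against 0.547 CPM and 14.5 against 1.79 CPM. *Batf2*, a transcription factor, had 53.5 against 0.690 CPM and 16.6 against 1.46 CPM. *Tmem140* had 304 against 2.47 CPM and 149 against 11.1 CPM. Of the 123 lower genes 118 were outside the lists, 14 were immunoglobulin genes, and some of these rested on a single cell. In C-ON 2309 of 2310 *Ighv1-67* UMIs of the other oligodendrocytes lay in 1 cell, and for *Ighv2-9* it was 2307 of 2401.

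Transcripts of other cell types were followed in the members, since a droplet can hold free RNA or parts of a second cell. The 12 microglial and macrophage genes had 198 CPM in members and 141 CPM in the other oligodendrocytes of C-ON, and 678 against 687 CPM in FMC_new. The 12 T and NK cell genes had 20.1 against 12.3 CPM and 32.1 against 84.5 CPM, with 2 genes at 0 in members of C-ON and 1 in those of FMC_new. The 6 B and plasma cell genes had 583 against 476 CPM and 839 against 1400 CPM. These lists were thus higher in members of C-ON and at or below the level of the other oligodendrocytes in FMC_new, while the interferon lists were higher in both. Fibroblast genes had 32.4 against 16.7 CPM and 17.2 against 30.7 CPM, and were seen in 14.5% of members against 3.61% and in 9.31% against 5.94%. Endothelial genes had 12.2 against 8.66 CPM and 3.52 against 6.83 CPM. Astrocyte genes and mast cell and neutrophil genes had lower summed CPM in members of both libraries. However, 1 astrocyte gene was called higher, and astrocyte genes were seen in 43.7% of members against 44.8% in C-ON and in 51.6% against 43.8% in FMC_new. The mast cell and neutrophil value of C-ON rested on 11 UMIs in members, and 0 genes of that list could be compared. Without cells that held any of 10 microglial or T cell transcripts, the median log2 ratio of the 21 MHC class I and immunoproteasome genes was 3.81 as the mean of both libraries, against 3.42 with them. The 5 neuronal genes summed to 441 against 287 CPM in C-ON and 670 against 425 CPM in FMC_new, nearly all of it *Tubb3* with 439 against 285 CPM and 660 against 398 CPM. Of the 2 neuronal genes compared, *Tubb3* was not called and *Snap25* was called lower, with 0.344 against 0.999 CPM and 5.43 against 12.2 CPM, and the direction of *Snap25* turned after thinning. The part of these transcripts in the other results was not tested beyond these values. The pituitary genes *Gh*, *Prl* and *Pomc* together had 4273 against 12080 CPM in FMC_new and 4.30 against 3.54 CPM in C-ON. They were seen in 100% of members and 99.9% of the other oligodendrocytes of FMC_new, and in 3.79% and 2.61% in C-ON. Transcripts foreign to oligodendrocytes thus differed between the libraries and between both groups of FMC_new, and their part in the ratios of FMC_new was not tested. Between the libraries 296 barcodes were shared, among them 13 of members of C-ON and 10 of members of FMC_new, and 249 genes were called higher without those cells. Of oligodendrocytes left out for a *Ptprc* UMI, 58 of 340 in C-ON and 137 of 478 in FMC_new had an interferon sum of at least 3.

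Interferon genes themselves were hardly found in the members. *Ifng* had 9 UMIs in 4 members of C-ON and 8 in 5 members of FMC_new, and 0 UMIs of *Ifnb1* were found in members of either library. A count of 0 allows up to 3 UMIs over the members of a library, so lower levels were not detectable at this depth. *Ifng* was found in 274 of 892 cells of the T cell gate in C-ON (30.7%, interval 27.7% to 33.9%) and in 909 of 3865 in FMC_new (23.5%, interval 22.2% to 24.9%). These cells were shallower than the oligodendrocytes, with a median of 3503 against 7700 UMIs and 3469 against 7100 UMIs, and only 8 and 24 other oligodendrocytes held an *Ifng* UMI.

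Cells of other types also had an interferon sum of 3 or more. The gates used marker genes of each type and an oligodendrocyte sum under 4. Members made up 64.4% of the 943 kept cells with such a sum in C-ON and 31.5% of 2452 in FMC_new. With cells gated on their full counts and then thinned to 2000 UMIs, the share was 7.94% of oligodendrocytes in C-ON (10.4% before thinning) and 18.1% in FMC_new (29.8% before). In the gate of oligodendrocyte precursors and glioma cells it was 2.31% (10.4% before) and 12.2% (27.7% before). In the astrocyte gate it was 4.46% (18.3% before) and 11.6% (30.8% before), and in the microglia and macrophage gate 4.55% (12.6% before) and 6.97% (15.2% before). T cells had 5.69% (13.1% before) and 3.74% (10.4% before), and B cells 1.14% (8.15% before) and 1.45% (8.47% before). The thinned shares of C-ON rest on few cells, 4 of 173 precursors and glioma cells (interval 0.633% to 5.81%), 5 of 112 astrocytes (1.47% to 10.1%) and 22 of 483 microglia and macrophages (2.88% to 6.82%). The intervals of FMC_new were 10.4% to 14.1%, 9.65% to 13.8% and 6.04% to 7.99%, so the libraries differed beyond counting error in the precursor and glioma gate, while the intervals overlapped for astrocytes and for microglia and macrophages. Among the gates named here the interval of the oligodendrocytes of FMC_new (16.5% to 19.7%) lay above the others of that library, while that of C-ON (7.24% to 8.68%) overlapped those of its T cells (4.15% to 7.59%) and astrocytes. Free RNA was not corrected for, and its part in these shares was not tested.

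**Figure D5:**
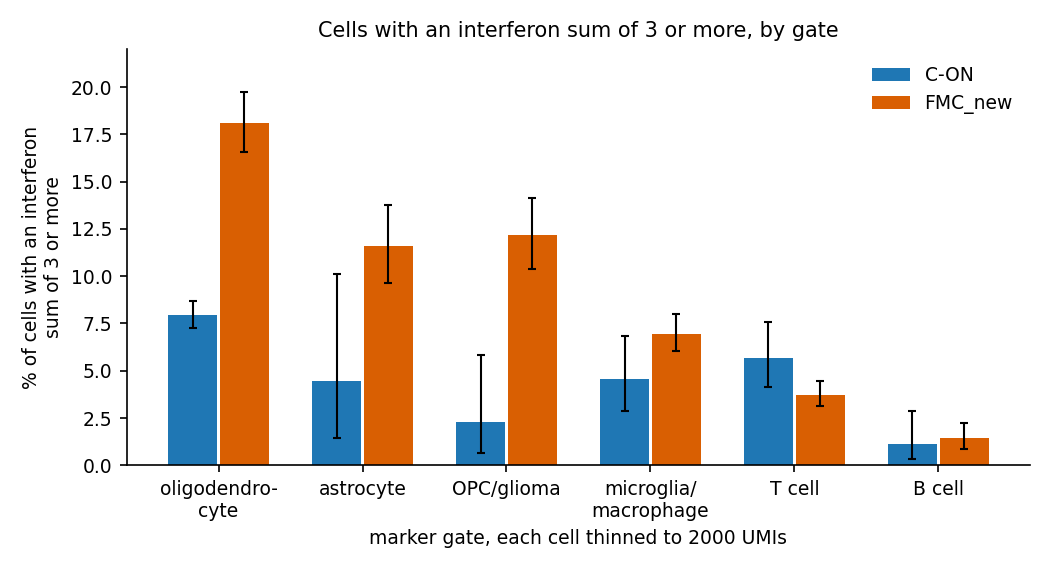
Share of cells (%) with at least 3 UMIs of *Iigp1*, *Igtp* and *Tgtp2* after thinning each cell to 2000 UMIs, by marker gate, with C-ON in blue and FMC_new in orange and exact 95% binomial intervals that cover counting error only. Oligodendrocytes have 7.94% and 18.1%, and B cells 1.14% and 1.45%.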

How the data were processed

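Per the labels, the authors prepared 5′ single-cell gene expression libraries from dissociated optic nerves after removal of myelin and debris. The values are raw UMI counts per gene and cell that the authors deposited after Cell Ranger (version 7.2.0 in the submitters' processing notes, which also name Seurat 5.2.1) with the mm10 build. Kept cells had a median of 6811 UMIs in C-ON and 4676 in FMC_new. UMIs of members and of other oligodendrocytes were summed per library and given as CPM. Ratios have exact conditional binomial 95% intervals, shares exact binomial (Clopper-Pearson) ones and levels exact Poisson ones, which cover counting error only. A gene with no UMIs in 1 group was given a floor of 3 counts. Thinning drew 2000 UMIs per cell without replacement (seed 1). The ratio and its interval were tested on simulated data. No p-value was computed, because the members were chosen on the same cells and the 2 libraries form 1 labelled group.

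Other gates needed summed UMIs of at least 4 for *Csf1r*, *C1qa*, *C1qb* and *C1qc* (microglia and macrophages), for *Aqp4*, *Gja1*, *Aldoc* and *Slc1a3* (astrocytes) and for *Pdgfra*, *Cspg5*, *Lhfpl3* and *Vcan* (precursors and glioma cells), and of at least 3 for *Cd3e*, *Cd3d*, *Cd3g* and *Trac* (T cells) and for *Cd79a*, *Cd79b* and *Ms4a1* (B cells). Scrublet marked 6 of 8834 cells (0.0679%) in C-ON and 0 of 16818 in FMC_new and was taken not to have worked, so doublets were not removed. The members and gene lists were chosen with earlier results of these data known. Named genes were those of the rule, in each list up to 5 with the most UMIs in members and up to 3 with the highest and 3 with the lowest ratio, the 10 highest and 10 lowest outside the lists, and the interferon and receptor genes, 223 in all. *Mlkl* was named after its values were seen. Some genes are not reported here. Gene positions came from GENCODE M21 (32158 of 32285 gene IDs matched), and promoters from RefSeq. Scripts ran in Python 3.11.15 with scanpy 1.11.5 for Scrublet, scipy 1.17.1 for intervals, numpy 2.4.6 and pandas 2.3.3 for sums, and matplotlib 3.10.9 for plots. Alternatives changed the thresholds, filters, depth, comparison cells and scaling.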

Additional observations from a re-analysis of the deposited data

How the results depend on the processing

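The share of members in C-ON and FMC_new was 8.96% and 22.4% with an interferon sum of at least 6, 11.4% and 34.6% with at least 2, and 7.88% and 18.5% after thinning, and in FMC_new 32.4% with an oligodendrocyte sum of at least 8. The 251 higher and 123 lower genes became 138 and 70 after thinning, 1590 and 238 with no filter other than 1 UMI, and 55 lower with 20 expected UMIs. Leaving out each library gave 414 to 772 higher and 551 to 921 lower genes, which also drops the demand on both libraries and applies the filter of 5 expected UMIs to the remaining library alone, so these differ from the counts of single libraries over the 12562 genes. After thinning the median log2 ratio, as the mean of both libraries, was -0.15 for myelin genes and -0.95 for leukocyte markers. These were -0.10 and -0.07 before thinning. The leukocyte median was 0.35 in C-ON alone and -0.49 in FMC_new alone. For MHC class II genes the mean of both libraries was 0.58, -0.15 after thinning and -0.07 as the mean of the CPM of single cells. Under the other alternatives that kept both libraries it lay between 0.18, with an interferon sum of at least 6, and 1.16, without cells with microglial or T cell UMIs. The interferon GTPases, antiviral and MHC class I genes kept a median above 0 under each alternative run. The direction turned after thinning for *Dcn* (0.39), *Snap25* (0.61), *Ncmap* (1.64), *Gm28675* (1.84) and *Il23a* (1.98), and without limits on cells for *Ighv1-81* (0.28). It turned without cells with microglial or T cell UMIs for *Cxcl9* (0.51) and *Igkv6-15* (0.14), and without cells in another gate for *Cxcl9* (0.39) and *Gpr17* (-0.42). Thinning leaves fewer UMIs per gene, and otherwise the cause was not tested. Leaving out barcodes found in both libraries and leaving out cells in another gate were chosen after seeing the data. Leaving out Scrublet doublets was not run. Members and other oligodendrocytes were compared within each library, so every ratio already pairs them. No paired analysis was possible because, beyond that, the labels give no second group of samples that shares replicate numbers.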

Other observations

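Type I interferon transcripts were found in few cells. In C-ON 1 kept cell of 5943 UMIs held 97 UMIs of *Ifnb1*, 45 of *Ifna2*, 37 of *Ifna4* and 1 of *Ifna1*, the sole UMIs of these 4 genes among the kept cells of C-ON. It also held 231 UMIs of Ccl4, 104 of Ccl3, 72 of *Cxcl10* and 46 of Tnf, with 0 of *Mog*, 1 of *Ptprc* and 1 of *C1qa*. In FMC_new 5 kept cells held 16 UMIs of *Ifnb1* together.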
